A study of Mus musculus domesticus and Mus musculus domesticus x Mus musculus castaneus and Mus musculus castaneus with 10 samples.

Results

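Aminoacyl-tRNA synthetases are the enzymes that join each amino acid to its transfer RNA, and the genes that encode them were described here in undifferentiated CAST stem cells. Members were taken by gene symbol: 20 genes for cytosolic enzymes, 16 for mitochondrial enzymes and 2 for the scaffold proteins Aimp1 and Aimp2. All 38 were found among the 26808 genes of the count table. The study asked how expression of translation genes differs between mouse subspecies in stem cells.

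RNA was analysed from 2 libraries of homozygous CAST/EiJ pluripotent stem cells (Mus musculus castaneus), replicates 1 and 2, with no treatment named in the labels. These cells were an induced line made from embryonic fibroblasts with retroviral Oct4, Sox2 and Klf4, and they were grown on irradiated mouse fibroblasts that were depleted before extraction. Not analysed here were 4 libraries of 129 cells and 4 of 129CAS hybrid cells. No comparison between genotypes was therefore made, and replicate spread is the only error available. Nothing in the labels says that both libraries came from separate cultures, and their batch entries differ, so a batch cannot be told apart from a replicate.

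Every synthetase recognises 1 amino acid, or 2 in the case of the fused enzyme Eprs, and attaches it to the matching transfer RNA before the ribosome can use it. Mitochondria translate their own small set of proteins and use a separate set of synthetases, which are encoded in the nucleus and imported. Several cytosolic enzymes assemble with scaffold proteins into the multisynthetase complex, and many cytosolic synthetase genes are known targets of the amino acid stress factor ATF4.

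The libraries held 14460393 counts in replicate 1 and 13728098 in replicate 2. Counts of single members ranged from 125 to 11671, so that all 38 had at least 100 counts in each library and all passed the filter of 10 counts in total. Levels are given as TPM, which are counts divided by transcript length and scaled to 1000000 per library, and means are followed by the SD over both libraries (n = 2). The 38 members took 0.790% of all counts in replicate 1 (95% Wilson interval 0.785 to 0.795%) and 0.722% in replicate 2 (0.717 to 0.726%), a mean of 0.756% ± 0.0481 (SD, n = 2). Intervals of this kind cover counting error only. Without the scaffold genes the mean was 0.741%. Cytosolic enzymes accounted for most of this share, with 0.659% ± 0.0450 of counts, while mitochondrial enzymes took 0.0824% ± 0.00455 (SD, n = 2).

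The label of the cells was set against marker genes. Among pluripotent stem cell markers, 8 of 10 listed symbols were matched in the table (Nanog and Dppa5a were not analysed here), with a median level of 565 TPM in replicate 1 and 351 TPM in replicate 2. Utf1 was the most abundant, at 1633 and 1453 TPM, and Pou5f1, the gene of Oct4, stood at 967 and 1190 TPM. Klf4 differed most between the libraries, at 265 and 108 TPM. Pou5f1, Sox2 and Klf4 were also the factors delivered by retrovirus, and the part of vector transcripts in their counts was not tested. The other 5 markers had medians of 519 and 294 TPM. Neuron markers other than Tubb3 were low: Syt1 and Chat had 0 counts in both libraries, at a floor of 3 counts or 0.207 and 0.219 counts per 1000000. The most abundant of the 8 neuron markers, Tubb3, stood at 105 and 52.5 TPM, and their summed level was 110 and 55.3 TPM. Fibroblast markers were present in both libraries and are given with the replicate comparison.

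Cytosolic synthetases were abundant and mitochondrial ones moderate. The median cytosolic level was 225 TPM in replicate 1 and 204 TPM in replicate 2, and the median mitochondrial level was 39.1 and 33.5 TPM. The ratio of these medians was 5.75 and 6.09, with a mean of 5.92 ± 0.241 (SD, n = 2), so that the gap between the compartments was far larger than the spread between libraries. Among the 13824 genes with at least 10 counts, where the median level was 17.4 TPM, the median cytosolic enzyme stood at percentile 93.6 and the median mitochondrial enzyme at percentile 65.2. The members thus differ by compartment much more than by library.

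Per transcript length, all 20 cytosolic genes lay above all 16 mitochondrial genes in both libraries. This holds for the members as listed. Tarsl2, a further cytosolic threonine enzyme outside the 38, stood at 38.6 and 43.8 TPM, below Yars2, Tars2, Iars2, Sars2, Cars2 and Vars2 in both libraries. The closest were Hars, the lowest cytosolic gene, at 107 TPM in replicate 1 and 102 TPM in replicate 2, and the highest mitochondrial gene of each library, Yars2 at 105 TPM in replicate 1 and Tars2 at 98.6 TPM in replicate 2. The separation was the same by the union of exons and was incomplete by coding length. Divided by coding length, 19 cytosolic genes in replicate 1 and 18 in replicate 2 stood above every mitochondrial gene, because Iars2 then passed Hars in replicate 1 and both Hars and Lars in replicate 2. Per transcript length mean cytosolic levels spanned 5.99-fold from lowest to highest, and mitochondrial levels spanned 16.3-fold (15.0 in replicate 1 and 20.8 in replicate 2). These spans were 5.38-fold and 10.2-fold by coding length, and 5.65-fold and 14.3-fold by the union of exons.

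Kars and Gars led the cytosolic group per transcript length. Each serves both the cytosol and the mitochondria from 1 gene, through alternative forms of the protein. Kars, the lysine enzyme (chromosome 8, 111993443 to 112011323 in GRCm38), stood at 645 TPM in replicate 1 and 608 TPM in replicate 2 (mean 626 ± 26.0, SD, n = 2). Gars, the glycine enzyme (chromosome 6, 55038007 to 55079500), stood at 612 and 482 TPM (547 ± 91.6). The aspartate enzyme Dars came next at 325 and 343 TPM (334 ± 13.1). On this scale Kars was above Gars, and Gars above Dars, in each library. By the union of exons Gars was above Kars in both libraries (744 and 598 against 504 and 485 TPM), and by coding length Kars stayed first, so which of them leads depends on the length. Dars was within the spread of several genes below it, among them Sars at 328 ± 41.8 TPM and Nars at 318 ± 60.0 TPM.

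The lowest mean cytosolic levels per transcript length were those of the enzymes for histidine, leucine and cysteine. Hars was lowest in both libraries on this scale, with a mean of 105 ± 3.89 TPM. By the union of exons the lowest was Farsa in replicate 1 (121 TPM) and Cars in replicate 2 (106 TPM), with Hars at 139 and 135 TPM, and by coding length Lars was lowest in replicate 2, so the lowest rank depends on the length. Lars, the leucine enzyme, stood at 179 TPM in replicate 1 and 118 TPM in replicate 2 (148 ± 43.3), and Cars, the cysteine enzyme, at 169 and 133 TPM (151 ± 25.1). Lars and Cars changed places between the libraries, and Mars, at 133 TPM, was just below Cars in replicate 2, so the order above Hars is not resolved. The remaining cytosolic genes had mean levels between 162 TPM (Mars) and 328 TPM (Sars).

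Among mitochondrial enzymes, those for threonine, tyrosine and isoleucine were highest per transcript length. Tars2 stood at 92.7 TPM in replicate 1 and 98.6 TPM in replicate 2 (95.6 ± 4.22). Yars2 stood at 105 and 77.7 TPM (91.2 ± 19.1), and Iars2 at 84.4 and 74.0 TPM (79.2 ± 7.37). Tars2 and Yars2 changed places between the libraries. By the union of exons Tars2 was 51.2 and 55.5 TPM and left the highest 3 in both libraries, while Yars2 and Iars2 stayed highest. Of the 75-base stretches of the Iars2 transcript 36.3% also occur in the opposite-strand neighbour Rab3gap2. Without a stated strand setting, the reads of these neighbours cannot be told apart, and Iars2 is uncertain for that reason.

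Mars2, Wars2 and Pars2 had the lowest mean mitochondrial levels per transcript length. Lars2, at 11.6 and 7.84 TPM, was below Pars2 in replicate 1 and below Wars2 in replicate 2, so the lowest 3 differ between libraries. Mars2, which charges the methionine transfer RNA of mitochondria, stood at 6.99 TPM in replicate 1 and 4.74 TPM in replicate 2 (5.86 ± 1.60). Its annotated transcript is a single exon of 11294 bases with a coding sequence of 1758 bases, and by coding length its mean was 19.1 TPM. Wars2, for tryptophan, stood at 9.82 and 8.10 TPM (8.96 ± 1.22), and Pars2, for proline, at 12.4 and 6.63 TPM (9.50 ± 4.05). The lowest mitochondrial gene was Lars2 by coding length, with a mean of 7.08 TPM, and by the union of exons, with 5.49 TPM, so that which gene is lowest is set by the length chosen. The order of the genes was similar in both libraries, with Spearman correlations across genes of 0.865 for 20 cytosolic and 0.974 for 16 mitochondrial members. Genes are not independent replicates, and these values describe the 2 libraries.

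The enzymes for the same amino acid were compared next. For 16 amino acids a cytosolic and a mitochondrial member could be paired, with Eprs used for both glutamate and proline and the mean of Farsa and Farsb for phenylalanine. The cytosolic member was higher in both libraries for all 16, by at least 2-fold for 14, at least 5-fold for 9 and at least 10-fold for 5. The median ratio was 6.00 per transcript length and 4.81 per coding length. The ratio of a single amino acid is less firm, since coding length moved it by over 1.5 times for 10 of 16 amino acids and the union of all exons for 5.

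**Figure D1:**
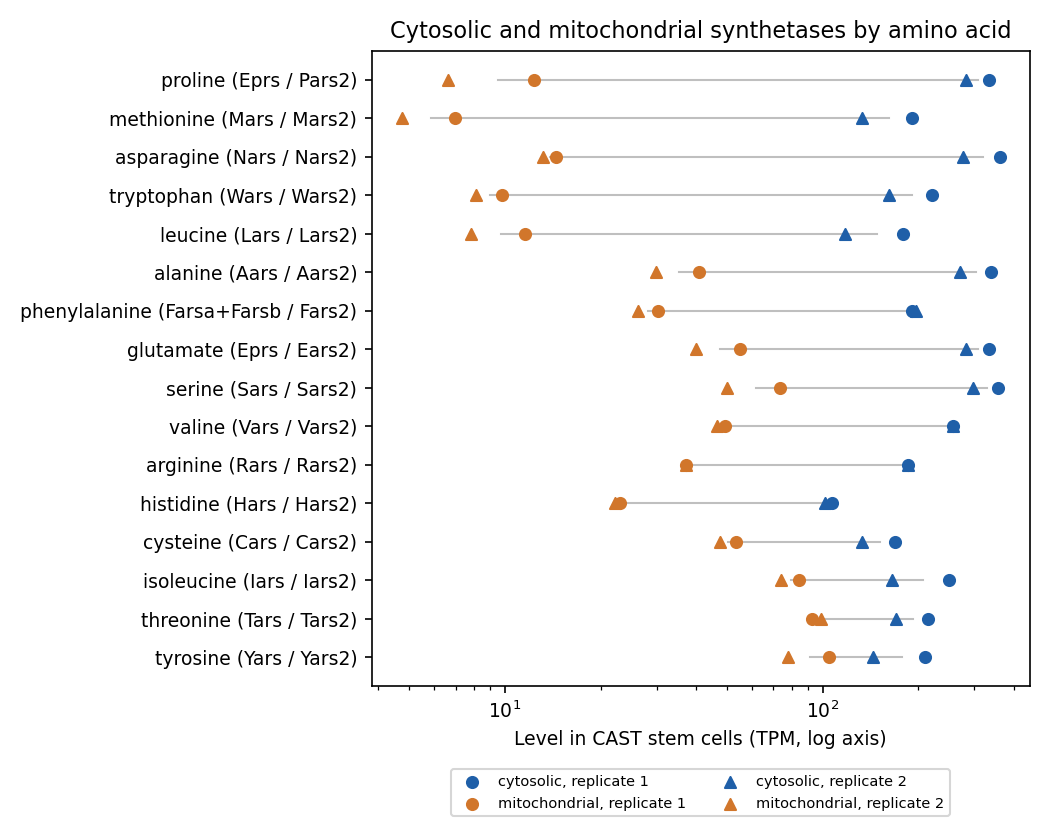
Level of the cytosolic (blue) and mitochondrial (orange) synthetase for each of 16 amino acids in TPM on a log axis, with circles for replicate 1, triangles for replicate 2 and a grey line joining the means over libraries. In each row both blue points lie to the right of both orange points, from a mean ratio of 34.9 for proline to 1.93 for tyrosine.

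Per transcript length the widest gaps were for proline, methionine and asparagine. By coding length they were for proline, alanine (15.0) and asparagine, and by the union of exons for leucine (32.1, against 15.2 per transcript length), asparagine (26.6) and methionine (23.9). Eprs stood at 333 TPM in replicate 1 and 283 TPM in replicate 2 against the Pars2 levels given above, a ratio of 27.0 and 42.7 (34.9 ± 11.1, SD, n = 2). This ratio fell to 19.0 by coding length and 9.60 by the union of exons. Mars stood at 191 and 133 TPM, which gave a mean ratio to Mars2 of 27.7 ± 0.507 (SD, n = 2). By coding length the methionine ratio was 4.67, so that its place among the widest gaps rests on the long annotated transcript of Mars2. Nars stood at 361 and 276 TPM and Nars2 at 14.5 and 13.2 TPM, a mean ratio of 22.9 ± 2.77, or 14.2 by coding length.

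Per transcript length the narrowest gaps were for tyrosine, threonine and isoleucine, the amino acids of the 3 highest mitochondrial genes. Yars stood at 210 TPM in replicate 1 and 144 TPM in replicate 2, a ratio to Yars2 of 2.01 and 1.86 (1.93 ± 0.107, SD, n = 2). Tars stood at 214 and 170 TPM, a ratio to Tars2 of 2.31 and 1.73 (2.02 ± 0.416). Iars stood at 249 and 165 TPM, a ratio to Iars2 of 2.95 and 2.23 (2.59 ± 0.512). Isoleucine was above both others in each library, although its spread overlapped that of threonine, and tyrosine and threonine changed places between the libraries. By coding length they were 2.99, 3.37 and 1.68, which makes isoleucine the narrowest, and by the union of exons 1.89, 3.96 and 3.53. Threonine then left the narrowest 3, which histidine (2.74) entered by coding length and serine (3.48) by the union of exons. Cytosolic and mitochondrial levels of the same amino acid were hardly related, with a Spearman correlation of 0.140 over 16 amino acids (0.218 by coding length).

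Enzyme levels were also set beside the use of each amino acid. The use was the share of residues in the coding sequences of 12995 expressed protein-coding genes of the nucleus, each weighted by its TPM. Leucine was the most used, at 9.23% of residues in replicate 1 and 9.19% in replicate 2, and tryptophan the least, at 1.02% in both. Across 20 amino acids, the level of the cytosolic enzyme and the use of its amino acid had a Spearman correlation of 0.511 (Pearson 0.529 on log2 values). It was 0.469 by coding length and 0.320 by the union of exons. Points share the libraries and, for glutamate and proline, the gene Eprs.

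Per transcript length leucine and tryptophan stood farthest from proportion. The leucine enzyme ranked 19 of 20 in level for the most used amino acid, which is 16.1 TPM for each percent of residues. Wars, the tryptophan enzyme, stood at 220 TPM in replicate 1 and 162 TPM in replicate 2, which is a mean of 187 TPM for each percent. The median over 20 amino acids was 50.5 TPM for each percent. Tryptophan kept the highest value under each length, but by the union of exons the leucine enzyme ranked 13, and glutamate, at 17.95 TPM for each percent, was below leucine at 19.2. Use spanned 9.02-fold from lowest to highest and enzyme levels 5.99-fold. These spans rest on the extreme amino acids only, and whether levels were more even than use over all 20 was not tested.

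For the mitochondrial set, use was counted in the 13 proteins encoded by mitochondrial DNA, which hold 3790 residues. Each protein was counted once and not weighted by its level, unlike the use in nuclear genes. Leucine made up 15.5% of these residues, isoleucine 9.84% and threonine 8.13%, and they were the most used amino acids there. Lars2, at 11.6 TPM in replicate 1 and 7.84 TPM in replicate 2, was among the lowest mitochondrial genes, whereas Iars2 and, per transcript length, Tars2 were among the highest. Over 16 amino acids the Spearman correlation of level and use was 0.0324 (0.150 by coding length), so that no relation with this unweighted use was visible. The value is not on the same measure as that of the cytosolic set.

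The parts of multi-protein assemblies were not all at 1 level. The cytosolic phenylalanine enzyme is built from the subunits Farsa and Farsb in equal number. Farsa stood at 188 TPM in replicate 1 and 227 TPM in replicate 2, and Farsb at 195 and 166 TPM. Their ratio was 0.961 and 1.37, with a mean of 1.17 ± 0.291 (SD, n = 2), so that which subunit was higher differed between libraries. By the union of exons Farsb was higher in both, with ratios of 0.498 and 0.710. Of the Farsb transcript, 8.97% of 75-base stretches also occur in Sgpp2 on the opposite strand.

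Within the multisynthetase complex, the 8 cytosolic enzymes had a median of 239 TPM in replicate 1 and 204 TPM in replicate 2, against 217 and 199 TPM for the 12 outside it. The ratio of these medians, 1.06 ± 0.0516 (SD, n = 2), was close to 1 in each library, and it was 0.872 by coding length, so neither set was higher under each length. Levels of the scaffold proteins depended on the length. Aimp1 stood at 224 TPM in replicate 1 and 242 TPM in replicate 2, near the enzymes of the complex, and Aimp2 at 66.1 and 66.0 TPM, which is 0.300 ± 0.0332 of their median. The ratio of Aimp1 to Aimp2 was 3.40 and 3.67 (3.53 ± 0.193), and 3.37 by coding length. By the union of exons it was 0.954 and 1.03, so the difference between the scaffold proteins is not seen on that scale. Aimp2 shares 37.3% of its 75-base stretches with its opposite-strand neighbour Eif2ak1, and its level is uncertain for that reason. Eef1e1, which encodes a further scaffold protein outside the 38 members, stood at 49.2 and 55.2 TPM.

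Synthetases fall into 2 classes with unrelated catalytic folds. In the cytosol, class II enzymes had a median of 332 TPM in replicate 1 and 273 TPM in replicate 2 (10 genes), and class I enzymes a median of 210 and 162 TPM (9 genes), with Eprs, which joins both folds, kept apart. Class II was also higher in both libraries by coding length and by the union of exons. In mitochondria class I was higher per transcript length, with medians of 49.2 and 40.0 TPM (9 genes) against 30.3 and 26.3 TPM for class II (7 genes). By coding length the mitochondrial medians were 30.8 and 26.7 TPM for class I and 25.6 and 24.9 TPM for class II, and by the union of exons the order turned in replicate 2 (25.8 against 28.1 TPM), so the order of the mitochondrial classes depends on the length. The ranges of the classes overlapped in both compartments, from 148 to 257 TPM for cytosolic class I and from 105 to 626 TPM for cytosolic class II.

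Class I enzymes bind ATP with a signature of histidine, any residue, glycine and histidine. A search of the translated coding sequences found it in 15 of the 19 class I enzymes, Eprs included, and in 0 of the 17 class II enzymes. The signature names the class and was not used to choose the members. The coding stretches of 3 pairs are shown because they let the cytosolic and mitochondrial enzyme of 1 amino acid be compared base by base where their function is shared. Sequences are of the reference strain in the GENCODE M21 annotation of GRCm38, each within 1 coding exon, and capitals mark the 12 bases that encode the signature.
Iars: ggactgcctCACTATGGACACatacttgct
Iars2: ggtgaccctCATGTTGGGCATgccctgaac
Rars: aaggagatgCATGTTGGCCACctcaggtca
Rars2: aaaaaatttCATGTTGGACATttgcgctcc
Vars: ggctccctgCACCTGGGCCACgcactcacc
Vars2: ggctccctgCACATTGGCCATgcactcaca

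The Iars stretch lies on the plus strand of chromosome 13 from 49688191 to 49688220 in exon 3, and that of Iars2 on the minus strand of chromosome 1 from 185327623 to 185327652 in exon 2. Those of Rars (chromosome 11, minus strand, 35826046 to 35826075) and Rars2 (chromosome 4, plus strand, 34633674 to 34633703) both lie in exon 6. Those of Vars (plus strand, 35005544 to 35005573, exon 8) and Vars2 (minus strand, 35666160 to 35666189, exon 4) lie on chromosome 17. The proteins of these pairs were 33.2%, 32.6% and 52.8% identical over their aligned residues. Levels of the arginine pair were 186 and 186 TPM for Rars and 37.2 and 37.2 TPM for Rars2, and those of the valine pair were 257 and 257 TPM for Vars and 49.2 and 46.4 TPM for Vars2.

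Over all pairs, protein identity between compartments ranged from 26.2% for leucine to 70.8% for histidine, with a median of 31.1%. Members lay on 16 chromosomes. Of the 38 members, 27 shared no 75-base stretch of their transcript with another gene, and the 11 that did shared it mostly with a neighbour on the opposite strand. Hars and Hars2 are such neighbours, and 6.32% of the stretches of Hars also occur in Hars2. Apart from that pair, no member shared a stretch with another member, so that reads of cytosolic and mitochondrial enzymes could be kept apart by sequence.

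The libraries were then compared with each other. Counts were scaled by effective library size, with 0.5 counts per 1000000 added before replicate 1 was divided by replicate 2, and a gene counted as apart when it differed by at least 1.5-fold. Of the 38 members 1 was apart, against 24.3% of all 13824 genes tested and 14.3% of the 8958 genes with at least 100 counts in each library. The median size of the log2 ratio was 0.18 for members, 0.31 for all genes and 0.25 for those deeper genes. Synthetase levels therefore differed less between these libraries than the level of the median gene did, a description with no test. The members were also more abundant, with a median of 149 TPM against 17.4 for all genes and 39.9 for the deeper genes. No set of genes of like level was compared.

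The member apart was Pars2, with 226 counts in replicate 1 and 125 in replicate 2. Its log2 ratio was 0.69, with a 95% counting interval from 0.40 to 1.05, which also includes differences below 1.5-fold. It is the member with the fewest counts. The next largest ratios were those of Lars, with 4272 and 2896 counts and a log2 ratio of 0.43, and Iars, with 6622 and 4516 counts and 0.42. In the other direction Farsa was farthest, with 2058 and 2567 counts and a log2 ratio of -0.45. For 27 of 38 members the counting interval of the ratio did not include equal levels, so that their differences between libraries exceeded counting error. Such intervals narrow as counts rise, and the share over all genes was not computed. The count of 27 is therefore not a trait particular to the synthetases.

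**Figure D2:**
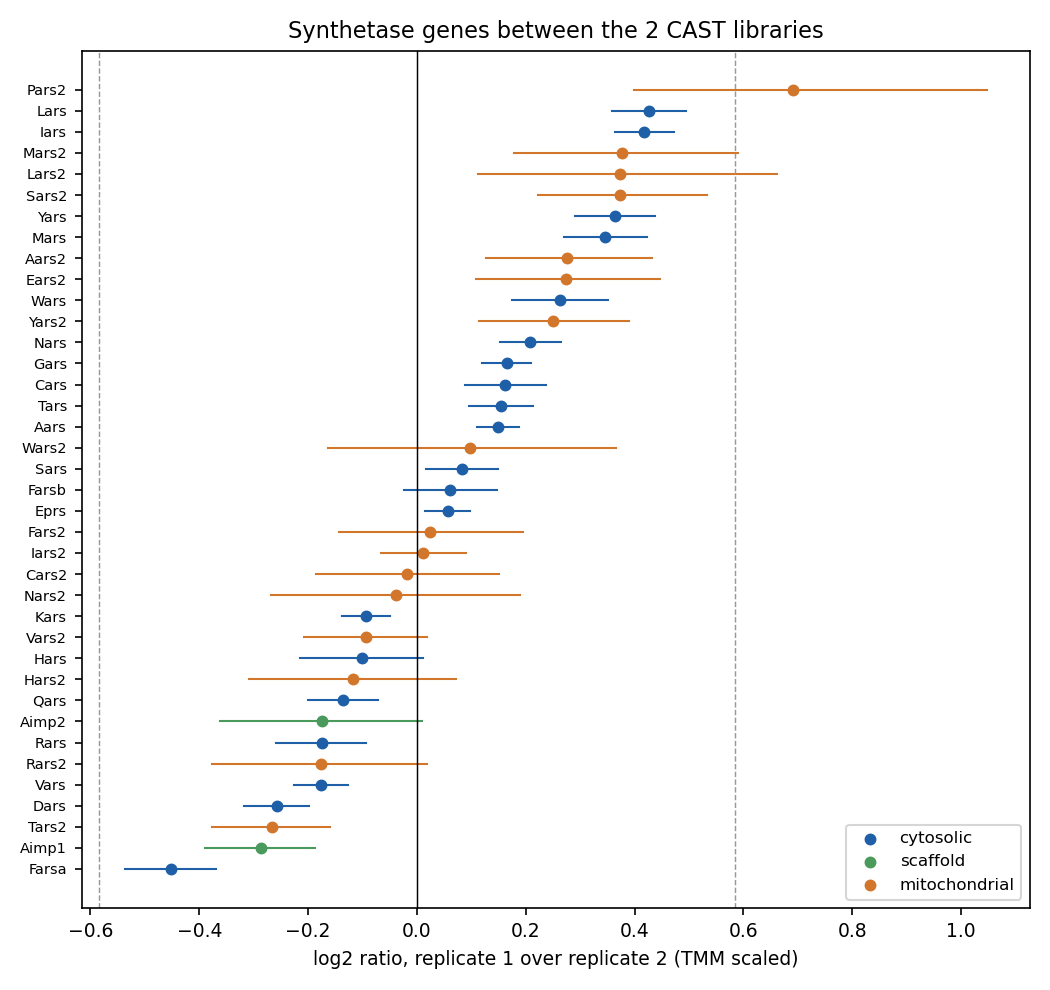
Log2 ratio of replicate 1 to replicate 2 for each of the 38 members (points, coloured by group) with 95% counting intervals (bars), and dashed lines at 1.5-fold. Pars2 is the only point past a dashed line, and members of both compartments lie on either side of 0.

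Direction was mixed. Higher values in replicate 1 were found for 13 of 20 cytosolic, 10 of 16 mitochondrial and 0 of 2 scaffold members, 23 of 38 in all, against 50.4% of all genes. With library totals as scale, Cars2 and Nars2 changed direction and 25 of 38 were higher in replicate 1, against 55.5% of all genes. The median log2 ratio was 0.12 for cytosolic and 0.06 for mitochondrial members, and 0.00 for all genes. Both compartments thus moved little, and the ratio of compartments given above was almost the same in each library.

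Other genes of tRNA charging were low to moderate. The 11 listed had a median of 32.6 TPM in replicate 1 and 23.6 TPM in replicate 2, close to the mitochondrial synthetases, and Eef1e1 was the highest. Only Aarsd1, with 8 and 21 counts, was at least 1.5-fold apart, at a log2 ratio of -0.98, against 24.3% of all genes. Prorsd1 was farthest in the other direction at 0.54. Mitochondrial ribosomal proteins, which act with the mitochondrial synthetases in translation, had a median of 85.5 and 80.0 TPM over 77 genes. Their median log2 ratio was -0.12, and 20 of 76 tested were higher in replicate 1 (28 with library totals). Of all genes, 50.4% were higher in replicate 1 (55.5% with library totals). Cytosolic ribosomal proteins had a median of 1502 and 1655 TPM over 73 genes, and all 72 tested were higher in replicate 2 (71 with library totals), with a median log2 ratio of -0.49. Synthetases were thus not placed like ribosomal proteins between these libraries, a difference in medians that was not tested.

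Genes of amino acid supply and the ATF4 response were mostly, not uniformly, higher in replicate 1. Of 32 tested genes, 26 were higher there and 6 in replicate 2, and 11 passed 1.5-fold in the first direction and 2 in the second. Of all 13824 genes, 50.4% were higher in replicate 1, 13.4% by at least 1.5-fold, and 10.9% were at least 1.5-fold higher in replicate 2. The median log2 ratio of the listed genes was 0.48, against 0.12 for cytosolic synthetases. Asns, the asparagine synthetase of amino acid supply, had the highest mean, at 700 TPM in replicate 1 and 603 TPM in replicate 2, where Eif4ebp1 stood slightly above it at 607 TPM. The stress factor Atf3 was farthest, with 761 counts in replicate 1, 113 in replicate 2 and a log2 ratio of 2.55, and Ddit4 was farthest in the other direction, with 2526 and 5721 counts and -1.31. Whether this list and the synthetases move together was not tested, since both values come from 1 pair of libraries.

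Markers of fibroblasts, the kind of cell used as feeders, also differed between the libraries. Of 10 markers, 8 were higher in replicate 1 (9 with library totals), against 50.4% of all genes (55.5% with library totals). By at least 1.5-fold 7 of the markers were higher there, against 13.4% of all genes. The median log2 ratio of the markers was 1.20. Their summed level was 1389 TPM in replicate 1 and 516 TPM in replicate 2. Col1a1 was the most abundant at 701 and 291 TPM, Fbn1 was farthest at a log2 ratio of 2.22, Pdgfrb was farthest in the other direction at -0.15, and none was at 0. In bulk RNA more cells of a type and more RNA per cell cannot be told apart. The part of fibroblast RNA in the synthetase levels and in their ratios between libraries was not tested.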

How the data were processed

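The authors deposited raw counts of reads on each gene for polyA-selected paired-end RNA-seq libraries. The submitters' processing notes for the CAST libraries name GRCm38 (mm10), TopHat2 2.1.1, SAMtools and HTSeq. The study's methods name STAR with gene counting on the strain's own genome and discarded reads that mapped to several loci. Which of these made the table is not stated, nor is the strand setting, and the effect of the genome used on the counts was not tested. The labels and the methods also name different RNA kits. Left out were 7 further count columns whose names match no listed sample.

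TPM were computed from the counts and the length of the transcript with the longest coding sequence in GENCODE M21, whose symbols matched all 26808 identifiers. Effective library sizes came from edgeR 4.0.16 (TMM) in R 4.3.3. Ratios between libraries took genes with at least 10 counts in total (13824), and their computation was tested on simulated data. The floor of 3 counts was 0.207 per 1000000 in replicate 1 and 0.219 in replicate 2. Alternatives were other lengths, library totals, size factors of DESeq2 1.42.0, pseudocounts of 0.1 and 2, a filter of 1 count, a 2-fold limit and each library alone. Python 3.11.15 with numpy 2.4.6, pandas 2.3.3, scipy 1.17.1, Biopython 1.88 and matplotlib 3.10.9 was used for the remainder.

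The members and lists were chosen with earlier results of these data known. Named were the 3 highest and 3 lowest members of each compartment, the 3 widest and 3 narrowest pairs, Farsa, Farsb, Aimp1, Aimp2, Gars, Kars, members at least 1.5-fold apart and, for each other list, its highest gene and its farthest genes. Other names, the comparison with amino acid use, the lengths applied to single members, classes, subunits and that comparison, the markers without reprogramming factors and the background over genes with at least 100 counts were chosen after values were seen. With 1 group no test was run and no p-value is given.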

Additional observations from a re-analysis of the deposited data

How the results depend on the processing

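Other lengths, scalings, pseudocounts, filters and limits, and each library alone, gave further values for the main results. Of these, 24 stayed within the spread or interval of the reported value, 8 moved beyond it and 0 changed direction. Some of the 24 could not have moved, so this count does not measure robustness. Either of 2 libraries always lies within the SD around their mean, and all members pass a filter of 1 count. The ratio of median levels between compartments, 5.92, was 6.97 with the union of exons as length, 5.22 with coding length, 6.84 without division by length, 6.40 with means over members and 5.44 without Gars and Kars, and ranged from 5.75 to 6.09 with 1 library left out. With a 2-fold limit 0 members were apart. With library totals the median log2 ratio was 0.18 for cytosolic and 0.12 for mitochondrial members, a shift shared by all genes, whose median moved from 0.00 to 0.06. The share of counts ranged from 0.722 to 0.790% with 1 library left out, and the cytosolic enzyme was higher for 16 of 16 amino acids under each length and in each library. The correlation of enzyme level and amino acid use was 0.469 by coding length and 0.320 by the union of exons, alternatives added after seeing the data. No paired analysis was possible because the data held 1 group of 2 libraries.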

Other observations

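Mars and the stress factor gene Ddit3 are neighbours on opposite strands, and 68 bases of their annotated exons overlap. The log2 ratio of replicate 1 to replicate 2 was 0.35 for Mars, from 3395 and 2433 counts, and -0.79 for Ddit3, from 236 and 377 counts. The neighbours thus stood on opposite sides of equality in these libraries.

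Aars, the alanine enzyme, had the most counts of any member, 11671 in replicate 1 and 9590 in replicate 2. Of its 75-base stretches 22.1% also occur in Exosc6, which lies on the same strand, so that the level of Aars is uncertain. By transcript length it stood at 338 and 269 TPM. By coding length Aars had a mean of 305 TPM and Gars of 302 TPM, both behind Kars at 371 TPM, so that the place of Gars as a clear second was not kept on that scale.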
